A study of Arabidopsis thaliana with 12 samples.

Results

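AT4G14060 and AT1G70880 are Arabidopsis thaliana genes for major latex protein-like (MLP-like) proteins, and their levels were followed in roots of 3 lines on low and on sufficient sulfate. Both were chosen by their measured pattern over these arrays, so their values are given as a description and carry no p-value. They are 2 of 13286 genes that had a probe set of their own in the array annotation used here, 1 probe set for each of them. The study measured root RNA of 10-day-old plants on Affymetrix arrays, with 2 biological replicates in each of 6 groups. The slim1-1 and slim1-2 lines lost the response of a reporter to sulfur limitation and carry mutations in SLIM1, which encodes a DNA-binding protein related to EIN3 of the ethylene pathway. They were isolated from the parental line P, Columbia plants that express GFP from the promoter of SULTR1;2, a root sulfate transporter gene, so all 3 lines hold that transgene. The 6 groups were slim1-1, slim1-2 and P on S15 agar, with 15 µM MgSO4 added and the magnesium made up with MgCl2, and the same lines on S1500 agar, with 1500 µM MgSO4. Washed agar alone left about 10 µM sulfate. Each mutant is a single line, the roots were taken whole, and fewer cells of a type and less RNA per cell cannot be told apart in such samples.

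MLP-like proteins belong to the Bet v I fold, named after the major birch pollen allergen, in which a curved sheet wraps around a long helix and encloses a cavity for hydrophobic small molecules. The first members were found in the latex of opium poppy, and relatives in other plants are known to bind or modify hormones, sterols and alkaloid precursors. Plants carry many copies, often in tandem runs, and Arabidopsis MLP43 has been linked to abscisic acid and drought responses. SLIM1 is known as a regulator of the root response to sulfate shortage, in which sulfate uptake rises and the synthesis of sulfur-rich glucosinolates falls.

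AT1G70880 lies on chromosome 1 inside a run of MLP genes from AT1G70830 to AT1G70890, 7 family members in a row with 1 pseudogene among them, including MLP28, MLP31, MLP34 and MLP43. Only 2 of these 7 had a named probe set here, AT1G70880 and its direct neighbour AT1G70870. AT4G14060 lies on chromosome 4, and none of the 10 genes on either side of it is on the family list. The probe sequences were not used here, so whether either probe set also detects a related gene was not tested.

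Signals are given first as deposited, on the linear MAS5 scale, and then as log2 values after quantile normalization, which gives all arrays the same distribution. Array medians ran from 65.65 to 174.95, and slim1-2-S15 replicate 2 was the brightest array. Averaged over 12 arrays, AT4G14060 was at 6.84 on the normalized log2 scale and AT1G70880 at 6.19. On all 12 arrays both lay above a bound for background, the strongest signal of 27 control probe sets for Bacillus subtilis transcripts. Root identity of the samples was checked with PYK10, an abundant beta-glucosidase of roots, which averaged 12.76 on that scale. Listed markers of shoot tissue were not absent. The summed normalized signal of the 4 of 6 shoot markers with a named probe set ran from 721 to 817 in slim1-1-S15, 831 to 861 in slim1-2-S15, 1129 to 1155 in P-S15, 812 to 871 in slim1-1-S1500, 1353 to 1376 in slim1-2-S1500 and 1323 to 1517 in P-S1500, and their part in any result was not tested. No listed stele or root cap marker had a named probe set.

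AT4G14060 was higher on low sulfate in all 3 lines. In slim1-1 its deposited signals were 142.1 and 161.5 on S15, against 73.5 and 87 on S1500. In slim1-2 they were 204 and 480.8 on S15, against 96.3 and 114.9 on S1500. In P they were 87.4 and 176.7 on S15, against 45 and 43 on S1500. Within each line both S15 arrays were above both S1500 arrays, and the highest value of the whole set was on the brightest array.

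After normalization slim1-2 had the highest mean of the 3 lines on either medium. AT4G14060 averaged 7.17 ± 0.142 in slim1-1-S15 and 6.31 ± 0.00496 in slim1-1-S1500 (log2 normalized signal, SD, n = 2 arrays). It averaged 7.86 ± 0.176 in slim1-2-S15 and 6.90 ± 0.0381 in slim1-2-S1500. In P-S15 it averaged 6.999 ± 0.52, and in P-S1500 5.77 ± 0.198. The S15 and S1500 arrays did not overlap in any line on this scale either. With 2 arrays per group, such separation can also arise without a change. The share of all probe sets that separate in this way was not counted, so non-overlap is only a description here and below.

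**Figure D1:**
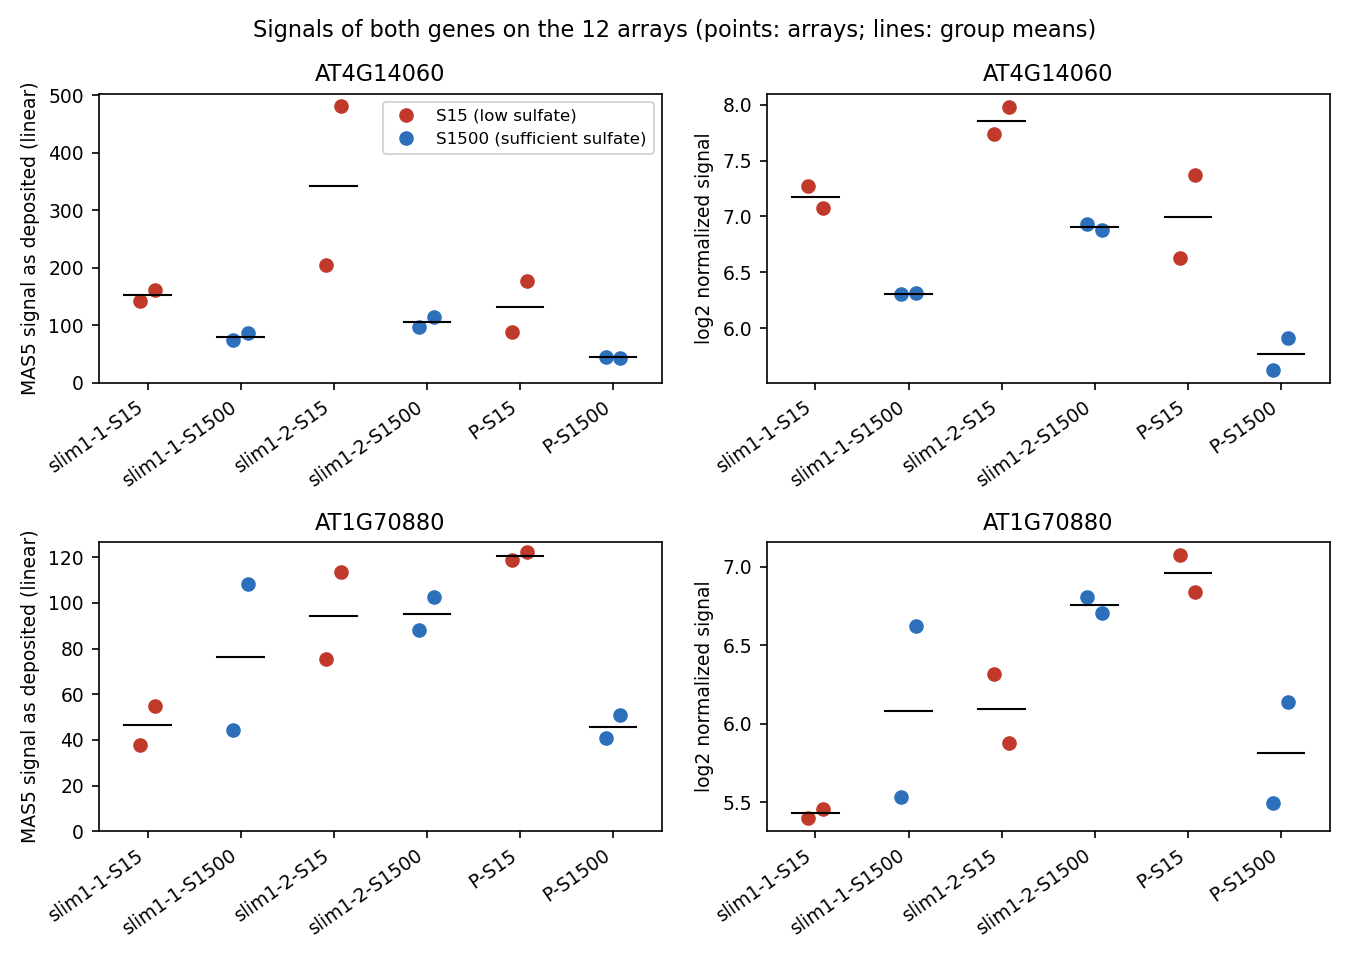
AT4G14060 (top) and AT1G70880 (bottom) on the 12 arrays, as deposited linear signals (left, axis from 0) and as log2 normalized signals (right, axis not from 0); points are arrays, lines are means of 2 arrays, red is S15 and blue is S1500. AT4G14060 is higher on S15 in every line, whereas AT1G70880 is not higher on S15 in slim1-1 or slim1-2 and is higher in P.

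The low-sulfate difference of AT4G14060 was 0.87 ± 0.204 in slim1-1 (log2 difference, SE of the fit; 1.82-fold), 0.95 ± 0.204 in slim1-2 (1.94-fold) and 1.23 ± 0.204 in P (2.35-fold). These sizes exceeded those of 99.3%, 99.2% and 99.4% of the 13647 tested probe sets in the same comparisons. The choice of AT4G14060 by its values on these arrays favours such large sizes, so these shares only describe it. The mean response of both slim1 lines differed from that of P by -0.32 ± 0.25, with a 95% interval from -0.86 to 0.22. Without P-S15 replicate 2 this difference was 0.05, so its sign rested on 1 array, and without P-S15 replicate 1 or 2 the response of P was 1.597 or 0.86.

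The slim1 lines were also set against P at each sulfate supply. On S1500, AT4G14060 was higher than in P by 0.54 ± 0.204 in slim1-1 and by 1.13 ± 0.204 in slim1-2 (2.20-fold), without overlap of arrays in either case. On S15 it was 0.86 ± 0.204 above P in slim1-2 without overlap (0.49 without P-S15 replicate 1). In slim1-1-S15 the values overlapped with those of P-S15, and the difference was 0.17 (95% interval -0.26 to 0.61), or -0.19 without P-S15 replicate 1.

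From high to low, the group means of AT4G14060 ran slim1-2-S15, slim1-1-S15, P-S15, slim1-2-S1500, slim1-1-S1500 and P-S1500. The neighbouring groups slim1-1-S15 and P-S15, and P-S15 and slim1-2-S1500, were 0.17 and 0.10 apart, less than the SD of 0.52 in P-S15, and their arrays overlapped. The other neighbouring groups were 0.54 to 0.69 apart with no overlap. On sufficient sulfate the slim1-2 arrays, at 6.93 and 6.88, thus fell between the P-S15 arrays, at 6.63 and 7.37.

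AT1G70880 had a different profile. In slim1-1 its deposited signals were 37.8 and 55 on S15, against 44.5 and 108.4 on S1500. In slim1-2 they were 75.5 and 113.3 on S15, against 88 and 102.4 on S1500. In P they were 118.8 and 122.4 on S15, against 40.9 and 50.7 on S1500. The arrays of slim1-1 and slim1-2 overlapped between media on the deposited scale, but those of P did not and were higher on S15.

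On the normalized scale AT1G70880 averaged 5.43 ± 0.0427 in slim1-1-S15 and 6.08 ± 0.768 in slim1-1-S1500, where the arrays were at 5.53 and 6.62 (log2, SD, n = 2 arrays). In slim1-2-S15 it averaged 6.09 ± 0.31, and in slim1-2-S1500 6.76 ± 0.0708. It averaged 6.96 ± 0.165 in P-S15 and 5.81 ± 0.456 in P-S1500. After normalization both S15 arrays of each slim1 line were below both S1500 arrays of that line. In slim1-1 the margin was small, with 5.40 and 5.46 on S15.

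The low-sulfate difference of AT1G70880 was -0.65 ± 0.301 in slim1-1 and -0.66 ± 0.301 in slim1-2, against 1.14 ± 0.301 in P (log2 difference, SE; 2.21-fold in P). The 95% intervals were -1.30 to -0.004 in slim1-1 and -1.31 to -0.015 in slim1-2. The slim1-2 value depended on the normalization and was -0.04 with the signals as deposited. Without slim1-1-S1500 replicate 1 or 2 the slim1-1 value was -1.198 or -0.11. The response of slim1-1 differed from that of P by -1.79 ± 0.425 (95% interval -2.71 to -0.88), and that of slim1-2 by -1.81 ± 0.425 (95% interval -2.72 to -0.89). The mean difference of response, -1.80 ± 0.368, ranked 13636 of 13647 tested probe sets from the most positive down. AT1G70880 was chosen by its values on these arrays, which favours an extreme rank. The rank and intervals are therefore a description and no evidence that the gene is unusual.

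**Figure D2:**
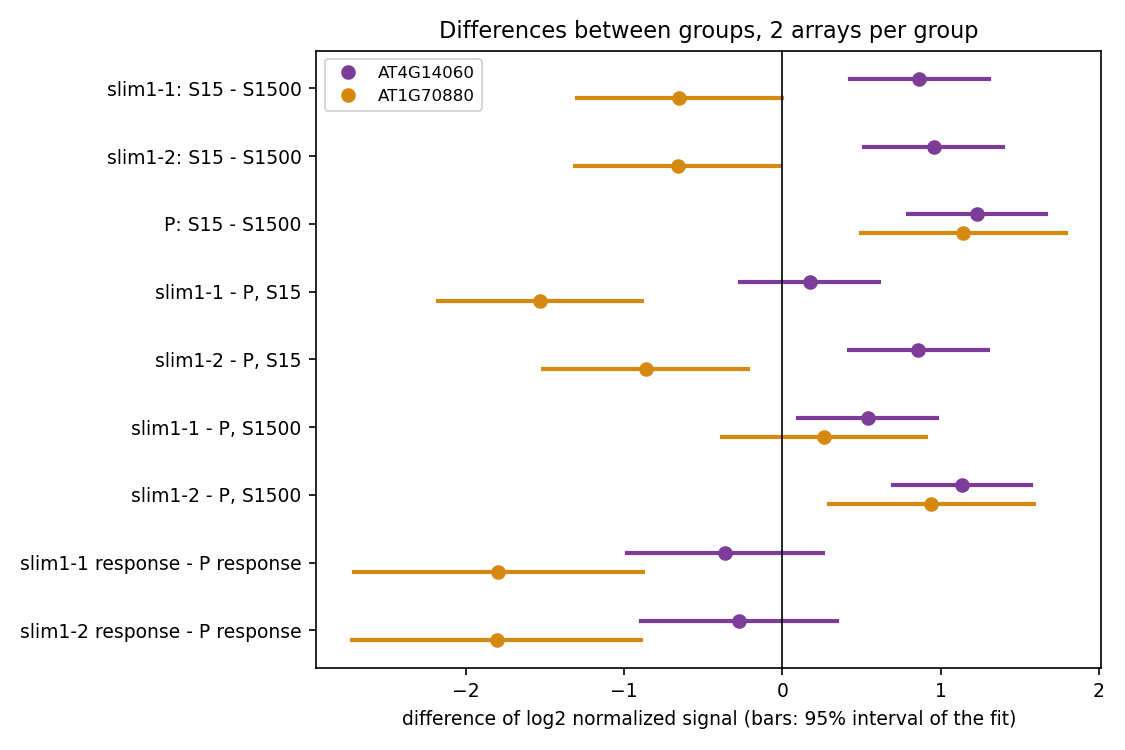
Differences of log2 normalized signal for AT4G14060 (purple) and AT1G70880 (orange); points are differences between groups of 2 arrays and bars are 95% intervals of the fit. In both slim1-1 and slim1-2 the low-sulfate difference is positive for AT4G14060 and negative for AT1G70880, and in P it is 1.23 and 1.14.

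On S15, AT1G70880 was lower than in P, with a difference of -1.53 ± 0.301 in slim1-1 (2.89-fold lower) and of -0.86 ± 0.301 in slim1-2 (1.82-fold lower), without overlap of normalized values. With no normalization the slim1-2 value was -0.38. On S1500, slim1-2 was higher than P by 0.94 ± 0.301 without overlap (0.62 without P-S1500 replicate 1), whereas slim1-1 overlapped with P (0.26, 95% interval -0.38 to 0.91), and the difference was -0.28 without slim1-1-S1500 replicate 2. As deposited, the S15 signals of slim1-1 and slim1-2 were also below both signals of P-S15, the nearest being 113.3 on the brightest array, against 118.8.

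The group means of AT1G70880 ran, from high to low, P-S15, slim1-2-S1500, slim1-2-S15, slim1-1-S1500, P-S1500 and slim1-1-S15. Below the top 2 the spread was large. The groups slim1-2-S15, slim1-1-S1500, P-S1500 and slim1-1-S15 were 0.02, 0.26 and 0.39 apart in this order, each less than the larger SD of the pair. The residual SD of AT1G70880 across groups was 0.393, larger than in 98.8% of tested probe sets, against 0.246 for AT4G14060 and a median of 0.133. Differences of AT1G70880 are therefore known less precisely than those of AT4G14060.

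Both MLP-like genes were higher in slim1-2 than in slim1-1 on either medium. On S15 the difference was 0.69 ± 0.204 for AT4G14060 and 0.67 ± 0.301 for AT1G70880, and on S1500 it was 0.60 ± 0.204 and 0.68 ± 0.301. The normalized values of both lines did not overlap in any of these 4 cases, though how many of all probe sets separate likewise was not counted. For AT1G70880 on S1500 they lay close, at 6.81 and 6.71 in slim1-2 and 5.53 and 6.62 in slim1-1. This order of the slim1 lines was not particular to the pair. Each of the other tested MLP family members, described below, also had a higher mean in slim1-2 than in slim1-1 on S15. On S1500 all of them but AT1G23120 did, which averaged 6.71 in slim1-2 and 6.87 in slim1-1. Across the 12 arrays the profiles of AT4G14060 and AT1G70880 had little in common, with a Pearson correlation of 0.10 and a Spearman correlation of 0.06.

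The rest of the MLP family gives the setting for both. The family list holds 26 other genes, of which 15 had a named probe set and 6 had enough signal to be tested, with a mean above the 40th percentile (5.77 on the log2 scale). A probe set was called when its adjusted p from limma (Benjamini-Hochberg over all tested probe sets) was under 0.05. The 9 below the filter averaged 0.84 to 5.36. Of these, AT1G14930, AT1G23910 and AT1G70870 were at or below the control bound on all 12 arrays, AT1G14940, AT1G23130 and AT1G24000 exceeded it on 1 array each, and AT5G28010, AT1G14950 and AT1G30990 on 10, 11 and 12. AT1G70870, next to AT1G70880, thus averaged 1.64 and was not above the bound on any array. The other 11 family members are unnamed here.

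In P, 2 of 6 tested family members rose on S15 and 0 fell, where 1.78% of all tested probe sets rose and 2.06% fell. AT3G26450 rose by 0.78 ± 0.164 (adjusted p = 0.0131 from limma), with 8.25 and 8.91 on S15, against 7.80 and 7.79 on S1500. AT1G14960 rose by 0.44 ± 0.113 (adjusted p = 0.0461 from limma), with 8.67 and 8.80 on S15, against 8.25 and 8.33 on S1500. Both S15 arrays of P were above both S1500 arrays for each gene. The call of AT1G14960 was lost with median centring, with no normalization, with no filter and without the intensity trend, and when each of 10 of the 12 arrays in turn was left out. Its change was 0.698 with no normalization and 0.37 to 0.50 with an array left out. That of AT3G26450 was lost with no normalization, where its change was 1.04, and when either P-S1500 array or P-S15 replicate 2 was left out, where it was 0.45 to 0.79. The median change of the 6 was 0.45, against 0.00 over all tested probe sets.

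In the slim1 lines AT1G14960 did not show the rise of P. In slim1-2 it fell by 0.66 ± 0.113 (adjusted p = 0.00398 from limma), with 8.32 and 8.15 on S15, against 8.95 and 8.85 on S1500. In slim1-1 its change was -0.18 (95% interval -0.42 to 0.07; adjusted p = 0.653 from limma). Its mean slim1 response differed from the P response by -0.86 ± 0.138 (adjusted p = 0.00639 from limma). AT1G14960 was the 1 of 6 tested family members called in slim1-2, where 1.06% of all tested probe sets rose and 1.99% fell, and the 1 of 6 called for the difference of response, where 0.286% of all tested probe sets were higher and 0.652% lower. With the deposited signals used without normalization, its slim1-2 change was -0.05 and its difference of response -0.81, and neither was called. The slim1-2 call was also lost without slim1-2-S15 replicate 2 (-0.58). For the difference of response the call was lost when P-S1500 replicate 1 (-0.82) or P-S15 replicate 2 (-0.79) was left out.

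On S15 AT1G14960 was lower in the mean of both slim1 lines than in P, with a difference of -0.52 ± 0.0978 (adjusted p = 0.0102 from limma), the 1 of 6 family members called there. Of all tested probe sets 0.74% were higher and 1.43% lower in that comparison. This call was lost with no normalization (-0.25) and when P-S15 replicate 1 (-0.59) or 2 (-0.46) was left out. On S1500 limma called 0 of 6, where 0.322% of all tested probe sets were higher and 0.755% lower. At an unadjusted p under 0.05 stood 1 of 6 (AT1G14960, 0.33 ± 0.0978), and 12.9% of all tested probe sets. AT1G14960 closes a run of 4 family members on chromosome 1, AT1G14930 to AT1G14960, and its probe set was the only one of the 4 to pass the filter.

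**Figure D3:**
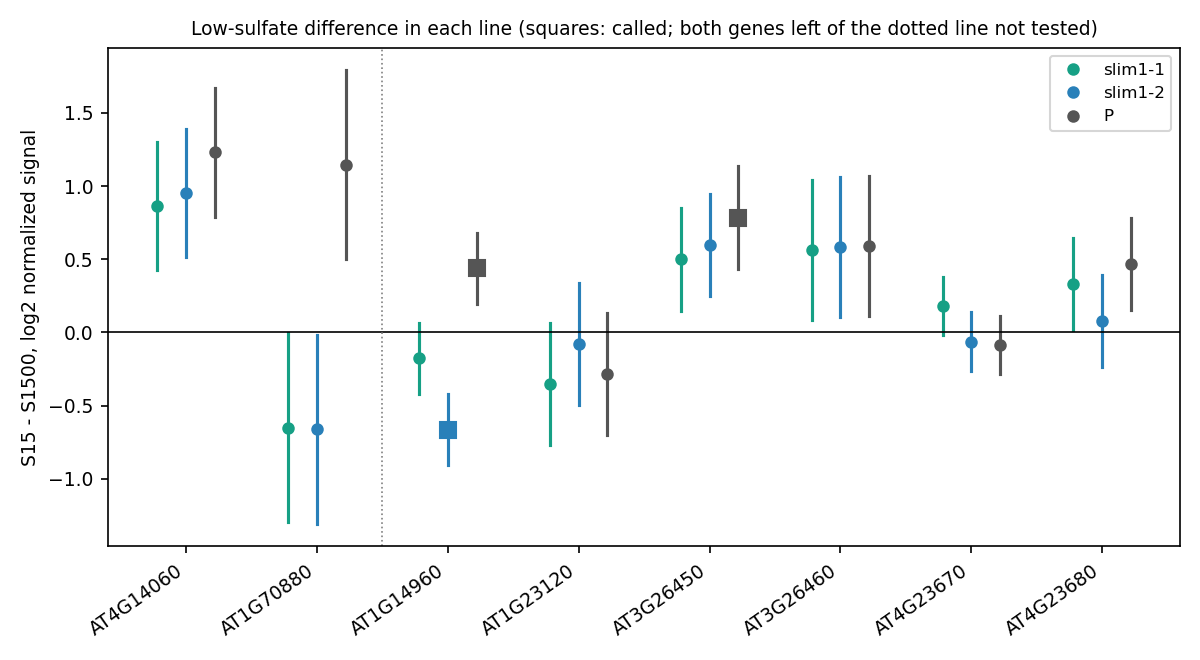
Low-sulfate difference (S15 minus S1500, log2 normalized signal) in slim1-1, slim1-2 and P for AT4G14060, AT1G70880 and the 6 other tested family members; bars are 95% intervals of the fit and squares are changes with an adjusted p under 0.05. AT3G26450 and AT3G26460 lie above 0 in all 3 lines, and AT1G14960 lies below 0 in slim1-1 and slim1-2 and above it in P.

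AT3G26450 had positive differences in the slim1 lines too, 0.50 in slim1-1 (adjusted p = 0.195) and 0.60 in slim1-2 (adjusted p = 0.0732), neither called by limma. Its difference of response was -0.24, with a 95% interval from -0.67 to 0.19 (adjusted p = 0.795 from limma). Its neighbour on chromosome 3, AT3G26460, had differences of 0.56 in slim1-1, 0.58 in slim1-2 and 0.59 in P, none of them called (adjusted p = 0.339, 0.228 and 0.204 from limma). In slim1-1 limma called 0 of 6 family members, where 0.806% of all tested probe sets rose and 1.39% fell. At an unadjusted p under 0.05 stood 3 of 6, and 11% of all tested probe sets (1507 of 13647).

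The remaining tested members were not called in any comparison. AT4G23670 averaged 11.01 over 12 arrays, and its low-sulfate differences were 0.18 in slim1-1, -0.06 in slim1-2 and -0.09 in P. AT4G23680, beside it on chromosome 4, averaged 9.11, with differences of 0.33, 0.08 and 0.47 in the same order of lines. AT1G23120 averaged 6.70, with differences of -0.35, -0.08 and -0.28.

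Among the genes around the pair on the chromosomes, 1 neighbour of each was called in a response to low sulfate. Of 20 genes flanking AT4G14060, 8 had a named probe set and 5 were tested. AT4G14020 rose on S15 in slim1-1 by 1.24 ± 0.271 and in slim1-2 by 1.28 ± 0.271 (adjusted p = 0.0274 and 0.0184 from limma), the 1 of 5 called there, where 0.806% and 1.06% of all tested probe sets rose. In P its difference was 0.56, with 5.67 and 6.26 on S15, against 5.41 and 5.40 on S1500. Both calls were lost with no filter, the slim1-1 call also with no normalization (1.261) and when any slim1-1 array but 1 was left out (0.85 to 1.307), and the slim1-2 call when any slim1-2 array but 1 was left out (1.03 to 1.293). Of 20 genes flanking AT1G70880, 7 had a named probe set and 4 were tested. AT1G70810 fell in P by 0.65 ± 0.17 (adjusted p = 0.0484 from limma), where 2.06% of all tested probe sets fell. This call was lost with median centring, with no normalization, with no filter and when each of 10 of the 12 arrays in turn was left out, all 4 P arrays among them.

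Known genes of the sulfur response moved in the same roots. Of 20 listed genes 4 had a named probe set and all 4 were tested, and in P 3 rose and 1 fell, where 1.78% of all tested probe sets rose and 2.06% fell. AT1G04770, the sulfur deficiency gene SDI2, rose by 2.41 ± 0.146 in slim1-1, 2.32 ± 0.146 in slim1-2 and 1.95 ± 0.146 in P, so it was higher in every line, as AT4G14060 was. APS3, an ATP sulfurylase gene, differed by -0.03 in slim1-1 and 0.05 in slim1-2, neither called, and rose by 0.75 ± 0.141 in P, a call that was lost with no normalization and when either P-S15 replicate 1 or P-S1500 replicate 2 was left out. Its difference of response, -0.74, was not called (adjusted p = 0.0707 from limma).

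BGLU28, a beta-glucosidase gene, rose by 3.10 in slim1-1, 3.71 in slim1-2 and 7.70 in P. Its P-S1500 signals of 13.9 and 6.2 were below the control bounds of 14.2 and 8.4. The change in P therefore has only a lower bound, 7.47 on the log2 scale with values raised to the control bound. In slim1-2-S1500 replicate 1 its signal of 17.1 was also below the control bound, 17.6, so the slim1-2 rise is limited by background too. APS4, another ATP sulfurylase gene, fell in all 3 lines, with differences of -0.67 in slim1-1, -0.74 in slim1-2 and -2.46 in P, and with no normalization neither slim1 change was called. These comparisons share their arrays with those of AT4G14060 and AT1G70880.

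The profiles most like each gene over the 12 arrays were sought among 7330 tested probe sets with 1 gene. For AT1G70880 the closest was EXPA7, an expansin of growing root hairs, with a Pearson correlation of 0.88. AT3G19390, AT3G07070, AT4G33730 and AT2G27480 followed at 0.86, 0.84, 0.84 and 0.83. All 5 had a lower mean on S15 in both slim1 lines and a higher one in P, with differences from -0.38 to -0.01 in slim1-1, -0.58 to -0.16 in slim1-2 and 0.19 to 0.83 in P. The 5 were picked by their likeness to AT1G70880 on these arrays, so a shared pattern follows from that choice. These arrays share their groups and their normalization, and between 2 and 5 of the 5 stayed in place when 1 array was left out. With median centring 3 of the 5 stayed.

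Root hair markers were higher on S15 in P, as AT1G70880 was, but showed little difference between media in the slim1 lines. EXPA7 stood at 7.95 and 7.76 in slim1-1-S15, against 7.72 and 8.01 in slim1-1-S1500, and at 8.22 and 8.15 in slim1-2-S15, against 8.43 and 8.30 in slim1-2-S1500. In P it stood at 8.79 and 8.74 on S15, against 7.76 and 8.24 on S1500. Of the 5 listed root hair markers only EXPA7 and EXPA18 had a named probe set. In slim1-1 EXPA7 and EXPA18 differed by -0.01 and 0.01 and in slim1-2 by -0.18 and -0.08, none of them called, against -0.65 and -0.66 for AT1G70880. In P EXPA7 rose by 0.76 (adjusted p = 0.00799 from limma) and EXPA18 by 0.78 (adjusted p = 0.000978 from limma). The call of EXPA7 in P was lost when P-S1500 replicate 1 was left out (0.52), with no normalization, and likewise for each array of P-S15. That of EXPA18 in P was also lost with no normalization. Their summed normalized signal was 409 to 448 in slim1-1-S15, 582 to 607 in slim1-2-S15, 786 to 811 in P-S15, 414 to 446 in slim1-1-S1500, 606 to 695 in slim1-2-S1500 and 434 to 510 in P-S1500. Their part in the values of AT1G70880 was not tested. EXPA7 was on the marker list and was also the closest profile to AT1G70880, so its shared pattern is no separate support.

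**Figure D4:**
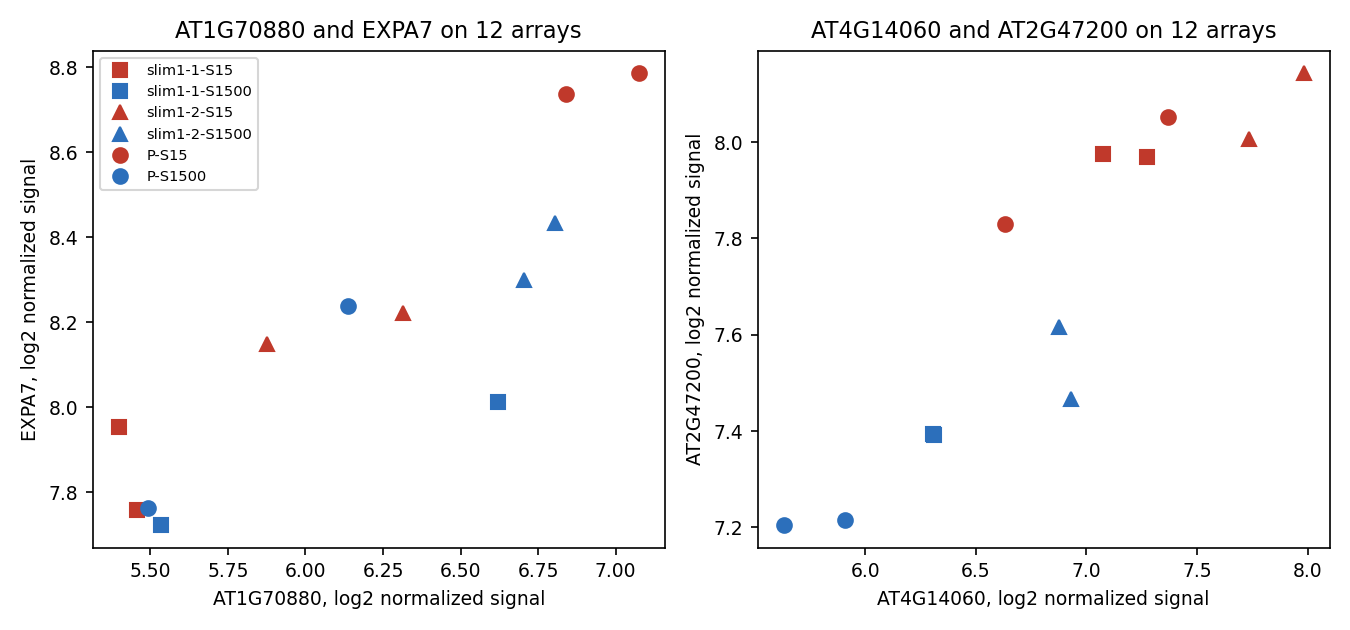
Left, AT1G70880 against EXPA7, and right, AT4G14060 against AT2G47200, as log2 normalized signals on the 12 arrays; shapes are lines and colours are media. The P-S15 arrays are at the top right on the left side, and the slim1-2-S15 arrays have the highest AT4G14060 values on the right side.

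For AT4G14060 the closest profiles were those of AT5G15180 (0.93), AT3G61820 (0.92), AT2G37110 (0.92), AT5G47060 (0.92) and AT2G47200 (0.92). All 5 had a higher mean on S15 in each line, but by less than AT4G14060. Here too the shared direction follows from the choice of the 5 by correlation. AT2G47200 had the largest differences of the 5, 0.58 in slim1-1, 0.53 in slim1-2 and 0.73 in P. None of these 5 was among the 5 closest when the signals were used without normalization between arrays, where the profile of any gene also holds the brightness of its array. With median centring 3 of the 5 stayed, and between 2 and 5 did when 1 array was left out.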

How the data were processed

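The authors deposited intensity values, 1 linear MAS5 signal per probe set and array, per the submitters' processing notes; for version and scaling the sources used here give nothing, and detection calls were not used here. Groups and replicate numbers came from the sample titles. Signals under 1 were set to 1, log2-transformed and quantile-normalized. Of 22746 probe sets that are no controls, 13647 with a mean above the 40th percentile entered limma 3.58.1 (R 4.3.3), with 1 mean per group over 12 arrays, eBayes with an intensity trend, two-sided tests and Benjamini-Hochberg adjustment in each comparison. Replicates share 1 estimate of spread, with 6 residual and 7.76 prior degrees of freedom, and the number of arrays limits the precision. The annotation gave 1 gene for 13513 probe sets, of which 13436 matched RefSeq (TAIR10.1, used for symbols and gene order), and 8794 are unlisted. No sequences were used.

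The members, lists and tests were chosen with earlier results of these data known. Named were both members, every other MLP family member with a probe set of 1 gene, the 5 genes with the highest Pearson correlation to each, called genes among 10 on each side, and tested sulfur genes; where a gene had several probe sets, the brightest was used. Same-numbered replicates were not treated as pairs: their deviations correlated at -0.12 to 0.23 over 15 pairs of groups, above 0.1 in 4. The procedure was tested on simulated data. Alternatives were median centring, no normalization between arrays, 16 or 64 added before log2, the filter dropped or moved to the 60th percentile, a variance prior without trend, blocking on the replicate number, values raised to the control bound, and each array left out in turn.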

Additional observations from a re-analysis of the deposited data

Results flagged for a closer look

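After normalization the low-sulfate difference of AT1G70880 was negative in both slim1 lines and positive in P. The slim1 values were imprecise, with 95% intervals that ended at -0.004 in slim1-1 and -0.015 in slim1-2. On the normalized scale every S15 array of slim1-1 and slim1-2 was below every S1500 array of the same line, and every S15 array of P was above every S1500 array of P. The share of all probe sets that separate in this way was not counted. The differences of response were -1.79 for slim1-1 and -1.81 for slim1-2, and they were not tested because the gene was chosen by its values. As deposited, the media overlapped in both slim1 lines, and the slim1-2 difference was -0.04. Without slim1-1-S1500 replicate 2 the slim1-1 difference was -0.11. The size of the slim1-2 difference thus depended on the normalization, and that of the slim1-1 difference on single arrays. Neither a fall in the slim1 lines nor the lack of a rise there was tested.

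Among the tested family members, neighbours, sulfur genes and root hair markers, limma called the difference between mean slim1 response and P response for 5. They were 1 of 6 family members, both tested root hair markers, and BGLU28 and APS4 among 4 sulfur genes, with none of the neighbours. Over all tested probe sets limma called 39 higher (0.286%) and 89 lower (0.652%). The other genes with profiles most like the pair were not checked for this call. AT1G14960, another MLP family member, differed by -0.86 ± 0.138 (adjusted p = 0.00639). EXPA7 and EXPA18, expansins of root hairs, differed by -0.86 (adjusted p = 0.0418 from limma) and -0.81 (adjusted p = 0.0118 from limma). EXPA7 was also the closest profile to AT1G70880 on these arrays, so its likeness to that gene is no separate support. The call of EXPA7 was lost with no normalization, no filter or no intensity trend and when each of 9 arrays in turn was left out. That of EXPA18 was lost with no normalization and when any P array was left out. BGLU28, a beta-glucosidase gene induced by sulfur shortage, differed by -4.29. Its P-S1500 signals were below the control bound on both arrays, as was its signal in slim1-2-S1500 replicate 1. The difference was -4.07 with values raised to that bound and -3.35 with 64 added. The ATP sulfurylase gene APS4 differed by 1.75.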

How the results depend on the processing

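Each group holds 2 arrays, and depth is not defined for arrays. Signal over background limits the 6 dim family members seen above the bound on at most 1 array. It also limits BGLU28 in P-S1500 and in slim1-2-S1500 replicate 1. Of 12 differences of AT4G14060 and AT1G70880 (the response in each line, the mean of both slim1 lines against P on either medium and the mean difference of response), each under 8 alternatives, 85 values stayed within the replicate spread, 11 moved beyond it and 0 changed sign. Without normalization between arrays, AT4G14060 differed by 1.498 in P, 1.574 in slim1-2 and 0.81 for slim1 against P on S15, and AT1G70880 by -0.038 in slim1-2. The difference of response of AT4G14060 in slim1-2 alone was then 0.08, against -0.28 with normalization. There the median of all probe sets shifted by 0.02 in slim1-1, 0.61 in slim1-2 and 0.26 in P. Calls were then 24 in slim1-1, 35 in slim1-2, 65 in P, 25 for slim1 against P on S15, 8 on S1500 and 11 for the difference of response, with 0 other MLP family members called by limma in any. The main counts were 300, 416, 524, 296, 147 and 128. With 64 added, AT4G14060 differed by 0.54 in slim1-1, 0.69 in slim1-2, 0.70 in P and 0.45 for slim1 against P on S1500, and AT1G70880 by 0.64 in P, -0.66 for slim1 against P on S15 and -0.99 for the difference of response. Median centring, no filter and no intensity trend each left 1 of the 2 family calls in P. On S1500 calls numbered 69 with no filter and 64 without the trend, where the difference of response had 83. Both genes fell below the filter at the 60th percentile and were not fitted there.

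With 1 array left out, AT4G14060 ranged from 0.86 to 1.597 in P, 0.15 to 0.88 for slim1 against P on S15 and -0.69 to 0.049 for the difference of response (-0.73 to 0.0043 for slim1-1, -0.64 to 0.09 for slim1-2), the positive values without P-S15 replicate 2. AT1G70880 ranged from -1.198 to -0.11 in slim1-1. Calls ranged from 137 to 321 in slim1-1, 196 to 387 in slim1-2, 270 to 556 in P, 128 to 307 for slim1 against P on S15, 21 to 162 on S1500 and 58 to 124 for the difference of response. Family calls ranged from 0 to 1 in slim1-1, 0 to 2 in slim1-2 and P, and 0 to 1 in both remaining comparisons that had any. The lone array of a group was assumed to vary like the other groups.

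With the replicate number as a block, calls were 310 in slim1-1, 408 in slim1-2, 554 in P, 312 for slim1 against P on S15, 148 on S1500 and 132 for the difference of response. The differences of both genes, such as 1.23 for AT4G14060 in P, were the same, and no call given above for a named gene was lost. Whether a named gene outside the MLP family gained a call was not checked.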
